A study of Mus musculus with 4 samples.

Results

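Heat shock and DnaJ chaperone genes were examined for MOV10 binding in a list of eCLIP peaks from N2A cells, a mouse neuroblastoma line. The genes were taken by name: all protein-coding RefSeq genes of GRCm38 whose symbol starts with Dnaj, Hspa, Hspb, Hsph or Hsp90, which gave 72 of 21896 coding genes. A peak was counted for a gene when its midpoint lay within the annotated span, which gave 43 of the 12236 peaks of the list. Hspbp1 and Hspbap1, which share the Hspb prefix without being small heat shock proteins, stayed in the set, and neither had a peak. Membership went by symbol alone, and whether every other Hspb gene, such as Hspb11, encodes a small heat shock protein was not checked.

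MOV10 is an RNA helicase that works with Argonaute proteins in the silencing of mRNAs. In eCLIP, RNA is crosslinked to protein with ultraviolet light, the protein is immunoprecipitated with the RNA fragments bound to it, and the fragments are sequenced beside an input library. The series held 4 libraries of N2A cells, 2 immunoprecipitates made with an anti-MOV10 antibody and 2 inputs. The labels name no treatment, genotype or time point, and all libraries share the line and the culture medium. For each peak the list gave 1 value read as its log2 fold enrichment (immunoprecipitate against input) and 1 read as −log10 p, both the authors' own and both over all libraries. No standard deviation between replicates could therefore be given, sequencing depth was not known, and the values below describe and rank peaks within this list.

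Chaperones keep other proteins folded. Hsp70 proteins (Hspa) bind exposed stretches of unfolded chains in a cycle driven by ATP. J-domain proteins (Dnaj) bring clients to Hsp70 and stimulate its ATPase, while Hsp110 proteins exchange its nucleotide. Hsp90 proteins act later, on kinases and receptors close to their final fold, and small heat shock proteins (Hspb) hold unfolded proteins without ATP. Some of these genes are switched on by heat shock factor under stress, and others are expressed in every cell. In neurons the system is known for clearing aggregation-prone proteins and for protecting the proteins of synaptic vesicles.

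MOV10 peaks were found in 8 of the 72 chaperone genes (11.1%), against a background of 8.53% of all coding genes. At that background share, 72 genes would hold 6.14 with a peak, so the count was close to it. Of the 8 genes, 6 encode J-domain proteins, namely Dnajc5, Dnajb14, Dnajc27, Dnajc14, Dnajc3 and Dnajb12. The other two, Hspa4 and Hspa4l, encode Hsp110-type exchange factors. J-domain genes make up 45 of the 72 (62.5%), and 6 of 45 (13.3%) had a peak, against 2 of the 27 other genes (7.41%), a difference given without a test. The J-domain genes held 41 of the 43 peaks, and Dnajc5, Dnajb14 and Dnajc27 together held 30 (69.8%). In the remaining 64 genes no peak was listed. The list holds only peaks with a log2 fold enrichment above 3, and the abundance of each RNA in the input was not known, so a gene without a peak is not shown to be unbound.

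By class, peaks were found in 2 of 13 DnajB genes (15.4%), 4 of 28 DnajC genes (14.3%) and 2 of 13 Hspa genes (15.4%). The 4 DnajA genes, the 10 Hspb genes, the 3 Hsp90 genes and Hsph1 held 0. At the 8.53% of all coding genes, these 18 genes together would hold 1.54 with a peak, the DnajB and Hspa classes 1.11 each and the DnajC class 2.39. The counts are thus too small to set the classes apart. The DnajA genes encode the closest relatives of bacterial DnaJ, and Dnaja1 and Dnaja2 are the main cytosolic partners of Hspa8 in this class. Hspa8, the constitutive cytosolic Hsp70, Hspa9, the mitochondrial Hsp70, and Hspa5, the endoplasmic reticulum Hsp70 known as BiP, were among the genes without a peak. So were Hsp90aa1 and Hsp90ab1, the inducible and the constitutive cytosolic Hsp90, and Hsp90b1, their endoplasmic reticulum counterpart.

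**Figure D1:**
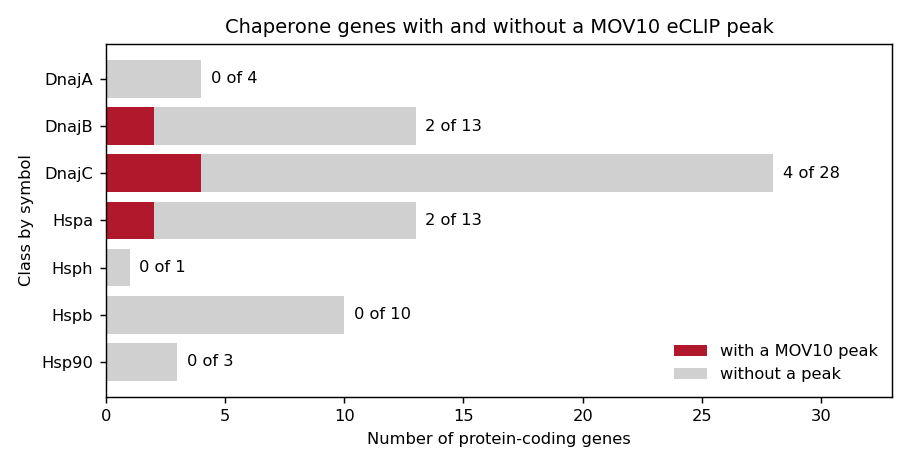
Number of chaperone genes (horizontal axis) with a MOV10 peak (red) and without (grey) in each class of symbols (vertical axis). Peaks were found in 2 of 13 DnajB, 4 of 28 DnajC and 2 of 13 Hspa genes and in no gene of the other classes.

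Grouped by role in lists drawn up by hand, peaks lay in genes of the endoplasmic reticulum, of vesicle traffic and of the constitutive cytosolic set. A gene may also fit a role other than its listed one. Of 12 endoplasmic reticulum genes, 3 had peaks, Dnajb12, Dnajb14 and Dnajc3. Of 5 vesicle and endosome genes, 2 had peaks, Dnajc5 and Dnajc27. Of 9 genes listed as constitutive cytosolic, 2 had peaks, Hspa4 and Hspa4l, and whether either is also stress-inducible was not examined. At the 8.53% of all coding genes, groups of these sizes would hold 1.02, 0.427 and 0.768 genes with a peak, in that order. The groups are small, the comparison is a description with no test, and the counts do not set the roles apart. None of the 8 genes listed as heat-inducible cytosolic had a peak. They comprise Hspa1a and Hspa1b, the stress-induced Hsp70 pair, Dnajb1 and Dnajb4, their J-domain partners, Hsph1, Hspb1, Hsp90aa1 and Dnaja4. At the background share a group of that size would be expected to hold less than 1 gene with a peak. The 8 mitochondrial genes, the 6 genes of the nucleus and the ribosome and the 12 tissue-restricted genes, most of them known from testis or muscle, also held 0. At the background share these groups would hold 0.682, 0.512 and 1.02 genes with a peak. Of the 13 genes in no role group, Dnajc14 alone had peaks. Its product also sits in the endoplasmic reticulum membrane, but it was not in that group, and this assignment is made after its values were seen. The other 12 genes in no group, Dnajc18 among them, were not reviewed for location. Dnajc14 is therefore not added to the endoplasmic reticulum count.

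The chaperone genes with peaks were mostly long. The median span was 41.1 kb for the 8 chaperone genes with a peak and 15.8 kb for the 64 without, and the same held for all coding genes, at 42.3 kb with a peak and 15.6 kb without. Among genes of at least 15 kb, 7 of 39 chaperone genes (17.9%) had a peak, against 13.2% of coding genes of that span. Below 15 kb, 1 of 33 chaperone genes (3.03%) had a peak, Dnajc14, against 3.14%. Many of the best-known chaperone genes are short: Hspa1a spans 2.798 kb, Hspa8 3.927 kb, Hspa5 4.44 kb, Hsp90aa1 5.36 kb and Hsp90ab1 5.484 kb. Length alone did not separate the groups. The longest chaperone genes, Dnajc1 at 188.466 kb, Hspa12a at 147.923 kb, the auxilin gene Dnajc6 at 146.152 kb and the endosomal gene Dnajc13 at 112.012 kb, held no peak.

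Taken singly, chaperone peaks had lower median values than the peaks of coding genes, with strong and weak peaks among them. Their log2 fold enrichment ran from 3.02 to 4.69 with a median of 3.41 (interquartile range 3.21 to 3.74), a lower median than the 3.70 (3.34 to 4.19) of all peaks in coding genes. Of the 43 peaks, 13 (30.2%) exceeded the median of the whole list, 3.71, and 6 (13.95%) reached 4, against 33.2% of peaks in coding genes that reached 4. By gene, 4 of the 72 (5.56%) had a peak of 4 or more, Dnajb14, Dnajc14, Dnajc5 and Dnajc27, against 3.59% of coding genes. That is 50.0% of the 8 genes with a peak, against 42.1% of the 1868 coding genes with one. The −log10 p ran from 3.01 to 12.1 with a median of 5.47, against 10.1 for peaks in coding genes. A −log10 p of 5 was reached in 7 genes (9.72%), all but Hspa4l, against 6.70% of coding genes. Only 4 chaperone peaks (9.30%) lay above the median −log10 p of the list, 10.2, and these were 3 in the Dnajc5 cluster and the peak of Hspa4. In the values for coding genes, here and below, a peak within several gene spans was counted once for each. Peaks of 1 gene share its transcript and are not independent. Taken by gene, the strongest log2 fold enrichment had a median of 3.66 over the 8 chaperone genes and 3.84 over the 1868 coding genes with a peak. The median number of peaks per gene was 5 against 3.

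**Figure D2:**
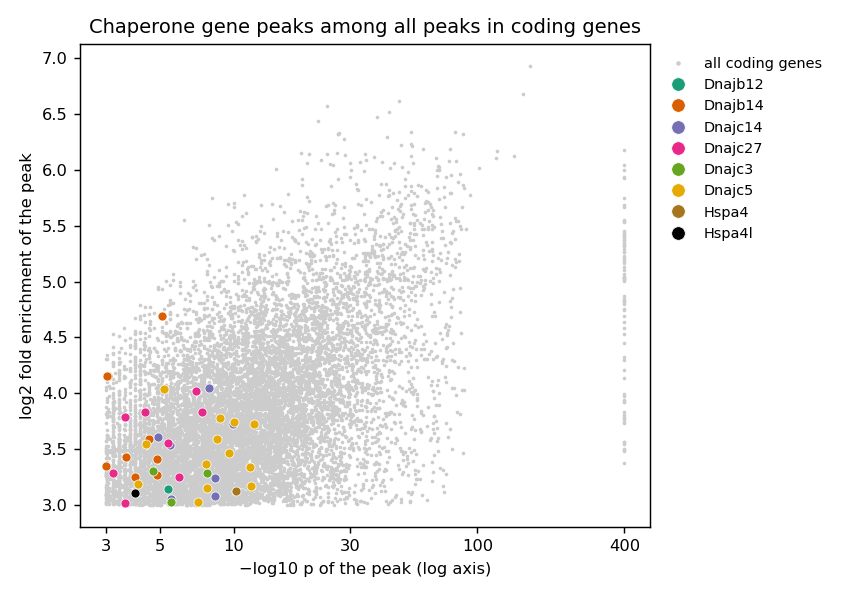
Each point is a peak, with its −log10 p on the horizontal axis (log axis) and its log2 fold enrichment on the vertical axis, for all coding genes (grey) and the 8 chaperone genes (colours). The highest −log10 p among the chaperone peaks is 12.1, in Dnajc5, and the highest log2 fold enrichment among them is that of Dnajb14 at 4.69.

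Dnajc5 held the most peaks of any chaperone gene. It encodes cysteine string protein, a palmitoylated J-domain protein of synaptic vesicles that keeps the SNARE protein SNAP-25 folded. Its 13 peaks covered 1130 nt on the plus strand of chromosome 2, in a gene of 34.0 kb (181518858 to 181552886, GRCm38), and 252 coding genes (13.5% of those with a peak) held more. They fell in 2 groups, 2 touching peaks at 3.1 to 3.2 kb from the 3′ end and, after a gap of 1280 nt, 11 peaks that ran from 1731 to 70 nt from the end. The strongest, 181552447 to 181552503, lay 411 nt from the end and reached 4.04 in log2 fold enrichment, a 16.4-fold linear enrichment, at a −log10 p of 5.19. The highest −log10 p of the gene and of all chaperone peaks, 12.1, belonged to another peak, 181551666 to 181551759, with a log2 fold enrichment of 3.73. The next 2 in that order, at 11.8 and 11.7, lay beside it towards the 3′ end with 3.17 and 3.34. The highest −log10 p values thus lay around 1 kb from the end, and the highest fold nearer to it.

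Dnajb14 had the strongest enrichment of the set, with low −log10 p values. It encodes a membrane-anchored J-domain protein of the endoplasmic reticulum that, like Dnajb12, takes part in the removal of misfolded membrane proteins. The gene spans 48.9 kb on chromosome 3 (137867675 to 137916563, plus strand), and its 9 peaks lay within 2603 nt, 3555 to 5994 nt from the 3′ end. No peak lay in the last 3.5 kb of the gene. The strongest, 137912681 to 137912761, reached a log2 fold enrichment of 4.69 (25.8-fold), and 300 of the 1868 coding genes with a peak (16.1%) had a stronger one. Peaks at 4.16 and 4.15 lay on its 5′ side, 841.5 and 262.5 nt further from the 3′ end, with weaker peaks of 3.25 and 3.41 among them. Their −log10 p values were 3.04 and 3.02, near the start of the list, and that of the strongest peak was 5.09. It was the only one of the 9 with a −log10 p of at least 5.

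Dnajc27 was the chaperone gene whose peaks lay away from the 3′ end. It encodes a small GTPase of the Rab family fused to a J domain. All 8 peaks lay on chromosome 12 between 4108136 and 4110306, in a gene of 41.6 kb (4082569 to 4124140, plus strand), 13.9 to 15.9 kb from the annotated 3′ end and 25.6 kb or more from the 5′ end. Along the gene from 5′ to 3′, their log2 fold enrichments were 4.02, 3.83, 3.84, 3.56, 3.79, 3.25, 3.28 and 3.02. The peaks nearest the 5′ end of this stretch were thus the strongest and the last was the weakest. Across these 8 peaks of 1 transcript region the Spearman correlation of enrichment with distance from the 3′ end was 0.93. In Dnajc5, Dnajb14 and Dnajc14 it was −0.055, −0.42 and 0.29, so none of them had so marked an order. The value of Dnajb14, over 9 peaks, was negative but shows no clear gradient, since its peak nearest to the 3′ end had only 3.43. RefSeq lists 13 transcripts of Dnajc27, the most of the 8 genes, and the annotated 3′ end is the outermost of them. Exons were not used here, so which transcripts end or carry an exon near the peaks was not determined.

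Dnajc14 carried peaks in 2 separate places. Its product is a J-domain protein of the endoplasmic reticulum membrane that takes part in the transport of receptors such as the dopamine D1 receptor. In a gene of 14.5 kb on chromosome 10 (128804904 to 128819448, plus strand), 2 touching peaks lay 10.1 and 10.0 kb from the 3′ end, at log2 fold enrichments of 3.61 and 3.54, and 5 lay 1398 to 1889 nt from it. The strongest, 128817621 to 128817746, reached 4.05 (16.5-fold) at a −log10 p of 7.96, and its neighbour towards the 3′ end had 3.72 at the highest −log10 p of the gene, 9.91. The last 2 peaks also lay within the span of Ormdl2, a regulator of sphingolipid synthesis. Both were on the plus strand, whereas Ormdl2 lies on the minus strand in RefSeq. The peaks covered 5.38% of the gene span, the largest share among the 8 genes, and Dnajc14 is also the shortest of them.

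Dnajc3 and Dnajb12, also of the endoplasmic reticulum, had few and weak peaks near the 3′ end. Dnajc3 encodes p58IPK, a luminal J-domain protein that assists BiP and restrains the stress kinase PERK. Its 3 peaks on chromosome 14 (gene 118937932 to 118981702, plus strand) had log2 fold enrichments of 3.28, 3.30 and 3.03, at 1728.5, 1157 and 770 nt from the 3′ end, and none reached the list median. Dnajb12 on chromosome 10 (59879583 to 59899296, plus strand) had 1 peak, 59899034 to 59899129, at 3.14 with a −log10 p of 5.37. It lay 214.5 nt from the end of the gene. The related genes Dnajb12 and Dnajb14 thus differed in this list by 1.55 in strongest log2 fold enrichment and by 1 against 9 peaks, with no replicate values to test the difference.

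Hspa4 and Hspa4l, the Hsp110-type genes Apg-2 and Apg-1, had 1 peak each. The Hspa4 peak on chromosome 11 (53260708 to 53260812, in a gene at 53259814 to 53300479, minus strand) was enriched by 3.12 on the log2 scale and lay 946 nt from the 3′ end. The Hspa4l peak on chromosome 3 (40794369 to 40794490, in a gene at 40744500 to 40796103, plus strand) had 3.10 and lay 1673.5 nt from the end. Their enrichment was nearly equal while the −log10 p was 10.3 for Hspa4 and 3.93 for Hspa4l. The 546 coding genes with 1 peak had a median of 3.31 on this scale, with quartiles at 3.12 and 3.58, so both peaks lay near the lower quartile. Hsph1, a heat-inducible Hsp110 gene of the same family, had no peak.

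**Figure D3:**
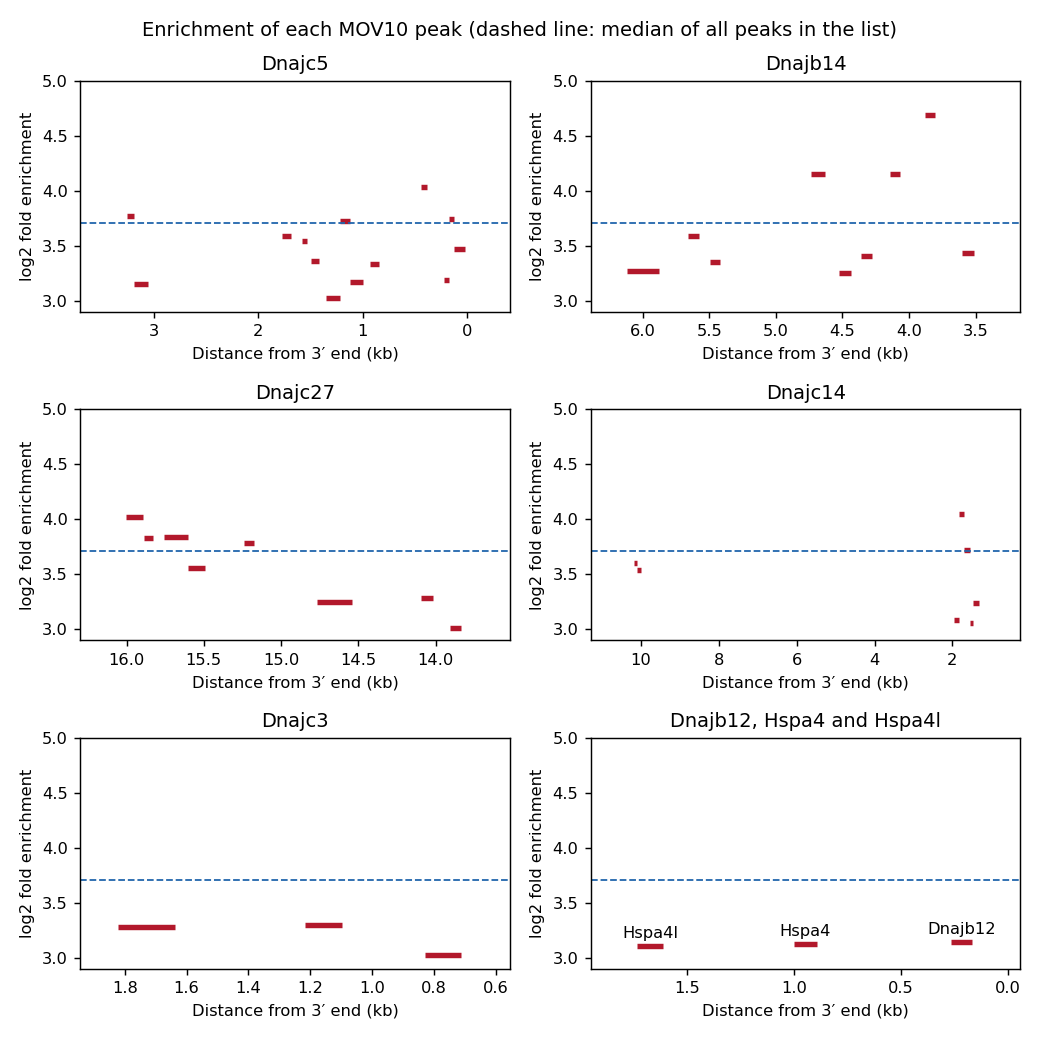
Log2 fold enrichment (vertical axis) of every peak in the 8 chaperone genes against distance from the annotated 3′ end in kb (horizontal axis, 3′ end to the right), with bar length showing peak width and the dashed line the median of all peaks in the list, 3.71. Dnajb14 holds the strongest peak at 4.69, and the 8 peaks of Dnajc27 go from 4.02 down to 3.02 towards the 3′ end.

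Most chaperone peaks lay in the last part of their genes. Of the 43 peaks, 30 (69.8%) were centred no more than 5 kb before the 3′ end of the gene, against 86.0% of peaks in coding genes, and the median distance was 1889 nt against 1531 nt. The 13 peaks beyond 5 kb came from 3 genes, 8 of Dnajc27, 3 of Dnajb14 and 2 of Dnajc14. Without Dnajc27 the share was 85.7%, close to that of all coding genes. Beyond 10 kb lay 10 chaperone peaks (23.3%, against 7.87% of peaks in coding genes), those of Dnajc27 and the outer pair of Dnajc14. By gene, 5 of 8 had all their peaks within 5 kb of the 3′ end (62.5%, against 81.8% of coding genes with a peak), Dnajb14 and Dnajc14 had peaks on either side of that limit, and Dnajc27 had none within it. Near the 5′ end, 2 peaks of Dnajc14 lay within 5 kb, at 4.4 and 4.5 kb, in a gene short enough for its ends to be close. Among all coding genes, 456 of the 12247 pairs of a peak and a gene lay that near to the 5′ end. Spans include introns, and whether a peak is exonic, intronic or in an untranslated region was not determined.

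**Figure D4:**
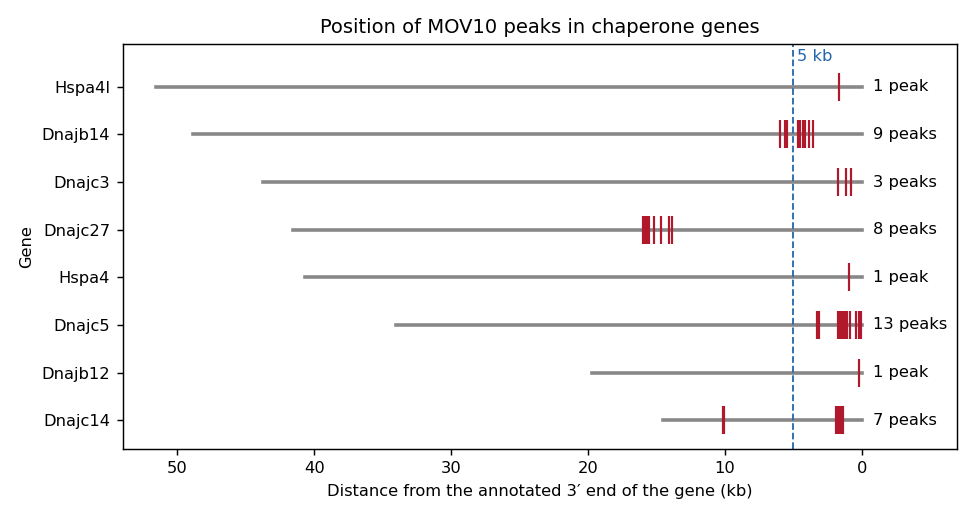
The spans of the 8 chaperone genes with peaks (grey lines), drawn to scale and aligned at the annotated 3′ end, with each peak midpoint as a red tick against distance from that end in kb (horizontal axis). Ticks lie right of the 5 kb line in all genes except Dnajc27 (0 of 8), Dnajb14 (6 of 9) and Dnajc14 (5 of 7).

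The strand of the peaks fitted the genes. For 7 of the 8 genes RefSeq promoter entries gave the strand, and all 30 of their peaks lay on it. Dnajc5 had no entry, and its 13 peaks were all on the plus strand. Of the 43 peaks, 41 lay in no other annotated gene, and all 8 genes kept a peak when those 41 alone were counted, against 7.70% of coding genes. Mapping of reads that match several places is not given in the sources used here. It could bear on genes with near-identical copies, such as Hspa1a and Hspa1b, and on genes with processed pseudogenes. The 4 annotated pseudogenes that carry one of the symbol prefixes held no peak. They are few, and pseudogenes under other symbols were not counted, so this does not settle the question of mapping.

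Partners of these chaperones outside the symbol prefixes were counted from a list of 57 genes, of which 55 were found under these symbols. Peaks lay within 8 of them (14.5%), but those of Ahsa2 and Cdc37l1 were on the opposite strand, in the overlapping genes Usp34 and Ak3. That left 6 genes, or 10.9%, against 8.28% of coding genes with a peak on their own strand, both shares counting genes of unknown strand by any peak. Of the 6 genes, 5 had a known strand that matched their peaks, and Bag4 had none. Sgta, a co-chaperone that hands over tail-anchored proteins, had 7 peaks up to a log2 fold enrichment of 3.84, all 6.0 to 6.9 kb from the 3′ end. Ptges3, which encodes the Hsp90 co-chaperone p23, had 2 up to 3.72. The prefoldin genes Pfdn2 and Vbp1 had 4 up to 3.69 and 1 at 3.14. The peaks of Pfdn2 also lay in the span of Klhdc9. The Hsp70 exchange factor genes Bag2 and Bag4 had 1 peak each, at 3.10 and 3.02, that of Bag4 also in the span of Gm17484. No peak lay in the heat shock factor genes Hsf1 and Hsf2, in the chaperonin genes Hspd1, Tcp1 and Cct2 to Cct8, or in Stip1, which links Hsp70 to Hsp90.

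The identity of the cells could be checked only through bound RNA. Of 11 neuroblastoma and neuron markers reported here, 3 had peaks (27.3%, against 8.53% of coding genes): Map1b with 31 up to 4.06, Stmn2 with 1 at 3.33 and Gata2 with 1 at 3.17. The other 8, Hand2, Gata3, Isl1, Tubb3, Nefl, Nefm, Elavl4 and Dcx, had no peak, which does not measure their expression.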

How the data were processed

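Per the labels' protocols, MOV10 eCLIP in N2A cells gave 2 immunoprecipitate and 2 input libraries, made and sequenced after the published method. The deposited file is 1 peak list of the whole series after an IDR step, as its name says. It has no header. Its columns were read as the −log10 p and the log2 fold enrichment computed by the authors, from the range of the values and the column order of published eCLIP files. If that reading is wrong, statements on strength would change. Which aligner, peak caller and cut-offs made it is not stated in the labels or the file. The builds mm10 and GRCm38.p6 are in the submitters' processing notes.

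Start positions were converted to count from 1. Gene spans came from RefSeq GRCm38.p6, and gene strands from its promoter table, for 58 of 72 chaperone genes, or from the peaks. The 11938 peaks in coding genes gave 12247 pairs of a peak and a gene, since spans overlap. Distances run from peak midpoint to annotated 3′ end, with the direction taken from the strand of the peak. In 253 of these pairs the gene lay on the opposite strand, so the distance ran to its 5′ end. No chaperone peak with a known gene strand was among them. Touching peaks were merged where stated. Python 3.11.15 with pandas 2.3.3 was used, and assignment and distances were tested on simulated data. No test between groups was possible, since no value per library was used. The libraries' labels do not say whether they came from separate cultures. All chaperone genes with a peak are named, and from the list of partners all genes with a peak. Some cell markers are not reported here. The members and lists were chosen with earlier results of these data known. No sequence of a peak is shown, as no genome sequence was used here.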

Additional observations from a re-analysis of the deposited data

How the results depend on the processing

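Stricter thresholds moved the counts most. Among peaks of log2 fold enrichment 4 or more, 4 chaperone genes (Dnajb14, Dnajc5, Dnajc14 and Dnajc27) with 6 peaks were left (5.56% of 72 genes, against 3.59% of coding genes), their median strongest enrichment was 4.04, and 83.3% were no more than 5 kb from the 3′ end. With a −log10 p of at least 5, 7 genes (9.72%, against 6.70%) and 26 peaks were left, and Hspa4l was the gene lost. The median was 4.02, and 80.8% of the peaks were within 5 kb of the 3′ end. The shares within 5 kb for peaks in coding genes at these stricter thresholds are not given here. Widening each span by 1 kb added 3 peaks at Hspb9, which lie in Rab5c on the opposite strand, and moved the median to 4.00. The share within 5 kb was 87.5% for the strongest peak per gene and 85.7% without Dnajc27. A window of 2 kb held 51.2%, against 60.5% of peaks in coding genes. Other alternatives (any overlap of 1 nt, peaks in exactly 1 gene, merged touching peaks, genes of at least 15 kb, the strand of the gene, the set without Hspbp1 and Hspbap1) gave 8 genes, 36 to 43 peaks and 68.3 to 69.8% wherever they applied. Strand and the set without Dnajc27 were added after seeing the data. No paired analysis was possible because the list combines both replicates and holds no value per library, and for the same reason no replicate could be left out. Read depth behind a peak was not known.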

Other observations

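Peaks close to chaperone genes but outside their spans were few. Within 10 kb of either end of the 72 genes lay 7 such peaks, and all 7 had their midpoint in another annotated gene. Near Hspb9, a small heat shock protein gene known from testis, 5 peaks lay 721 to 1105 nt beyond the 3′ end, on the opposite strand and in Rab5c, with log2 fold enrichments of 3.06 to 4.16. The others were 1 peak in Phf13 near Dnajc11 and 1 where Nkiras2 and Zfp385c overlap, near Dnajc7. No peak in unannotated sequence was listed beside a chaperone gene.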
